A study of Mus musculus with 10 samples.

Results

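The peaks described here lie at the loci of 5 genes of the circadian clock, Per1, Per2, Dbp, Nr1d1 and Arntl, in mouse liver. They are all peaks that overlap 5 fixed windows of the mouse build mm9. The windows are chromosome 11, 68890000 to 68940000 (Per1), chromosome 1, 93290000 to 93370000 (Per2), chromosome 7, 52940000 to 52980000 (Dbp), chromosome 11, 98610000 to 98650000 (Nr1d1), and chromosome 7, 120330000 to 120470000 (Arntl). Across 9 peak lists, 339 of 344928 peaks overlapped a window. The assay was ChIP-seq, the sequencing of DNA bound by a modified histone, for H3K27Ac, an acetylated lysine of histone H3 found at active promoters and enhancers. In 1 sample the target was H3K4me2, dimethylation at another lysine of that histone.

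All samples were full sections of normal mouse liver. The groups were fresh frozen liver, crosslinked after sectioning, and formalin-fixed, paraffin-embedded (FFPE) liver. FFPE sections were heated overnight in detergent buffer and then sonicated (FiTAc-seq), at 50 °C or 65 °C for 5 or 40 min or at 80 °C for 40 min, or were broken up with proteinase K and sonication (FiT-seq, 1 H3K27Ac and 1 H3K4me2 library). Only 65 °C with 5 min had 2 libraries, called library 1 and library 2. The series calls the frozen liver matched, without saying what was matched. Strain, sex, age and hour of tissue collection are not stated in the labels, nor is the number of animals or which of a pair of library kits each library used. Collection time, animal, library kit and way of preservation therefore cannot be told apart in what follows, and in bulk tissue fewer cells with a mark cannot be told apart from less of the mark per cell. The liver label was not checked against marker genes.

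The clock is a feedback loop of transcription. ARNTL (also BMAL1) pairs with CLOCK, binds E-box sequences and activates Per1, Per2, Nr1d1 and Dbp, and the PER proteins later repress this activity. NR1D1 (REV-ERBα) represses Arntl through ROR elements, and DBP is an output factor that binds D-box sequences. In liver the transcripts of these genes cycle over the day, Arntl in roughly the opposite phase to Nr1d1 and Dbp.

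The promoters below are shown because the E-box and the ROR element are the sequences through which the loop acts on its activated and its repressed genes. RefSeq promoters of build GRCm38.p6, which cannot be placed on the mm9 peaks, matched 4 of the 5 genes, all but Per2, in 6 entries of 300 bases. Letters searched on both strands were CACGTG (E-box), TTATGTAA and TTACGTAA (D-box) and NTAGGTCA (ROR element). Capitals mark the match, an E-box in 1 of the Per1 entries (chr11:69098699-69098998, plus strand) and a ROR element in 1 of the Arntl entries (chr7:113207261-113207560, plus strand).
Per1 promoter: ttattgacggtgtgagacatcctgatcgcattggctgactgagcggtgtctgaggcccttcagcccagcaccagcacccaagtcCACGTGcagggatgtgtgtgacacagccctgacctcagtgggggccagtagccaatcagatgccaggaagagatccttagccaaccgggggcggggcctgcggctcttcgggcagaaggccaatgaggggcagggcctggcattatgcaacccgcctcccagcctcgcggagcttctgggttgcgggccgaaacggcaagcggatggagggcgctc
Arntl promoter: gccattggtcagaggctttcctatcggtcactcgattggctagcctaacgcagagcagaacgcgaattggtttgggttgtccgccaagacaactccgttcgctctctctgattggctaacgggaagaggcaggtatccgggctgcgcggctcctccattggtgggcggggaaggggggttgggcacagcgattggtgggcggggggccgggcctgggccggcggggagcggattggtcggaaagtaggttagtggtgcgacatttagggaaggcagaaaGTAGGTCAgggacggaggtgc
The other 4 entries, including those of Dbp and Nr1d1, held none of these letters. Of all 32851 promoter entries of this length, 7.15% held the E-box, 1.06% a D-box and 2.59% the ROR element. A match is a description of the letters and not a binding site. None of these motifs contains another.

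Fresh frozen liver had 51 H3K27Ac peaks in the windows, of 48239 in its list. They numbered 11 at Per1, 19 at Per2, 8 at Dbp, 8 at Nr1d1 and 5 at Arntl. The FFPE lists held 55 after 5 min at 50 °C, 60 after 40 min at 50 °C, 55 and 47 in libraries 1 and 2 after 5 min at 65 °C, and 64 after 40 min at 65 °C. These 5 lists, of 38409, 65332, 60244, 56632 and 64146 peaks, are called the long FFPE lists. The 80 °C list had 1 peak in the windows, of 65, the FiT-seq H3K27Ac list none of 115 and the H3K4me2 list 6 of 11746. Genes near these in RefSeq (GRCm38.p6) include Vamp2 and Hes7 at Per1, Hes6 and Ilkap at Per2, Car11, Sphk2 and Rpl18 at Dbp, Thra at Nr1d1, and Btbd10 at Arntl. Peaks of a window may belong to these or to other neighbours. No mm9 annotation was used, so no peak is assigned to a gene, exon or intron.

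**Figure D1:**
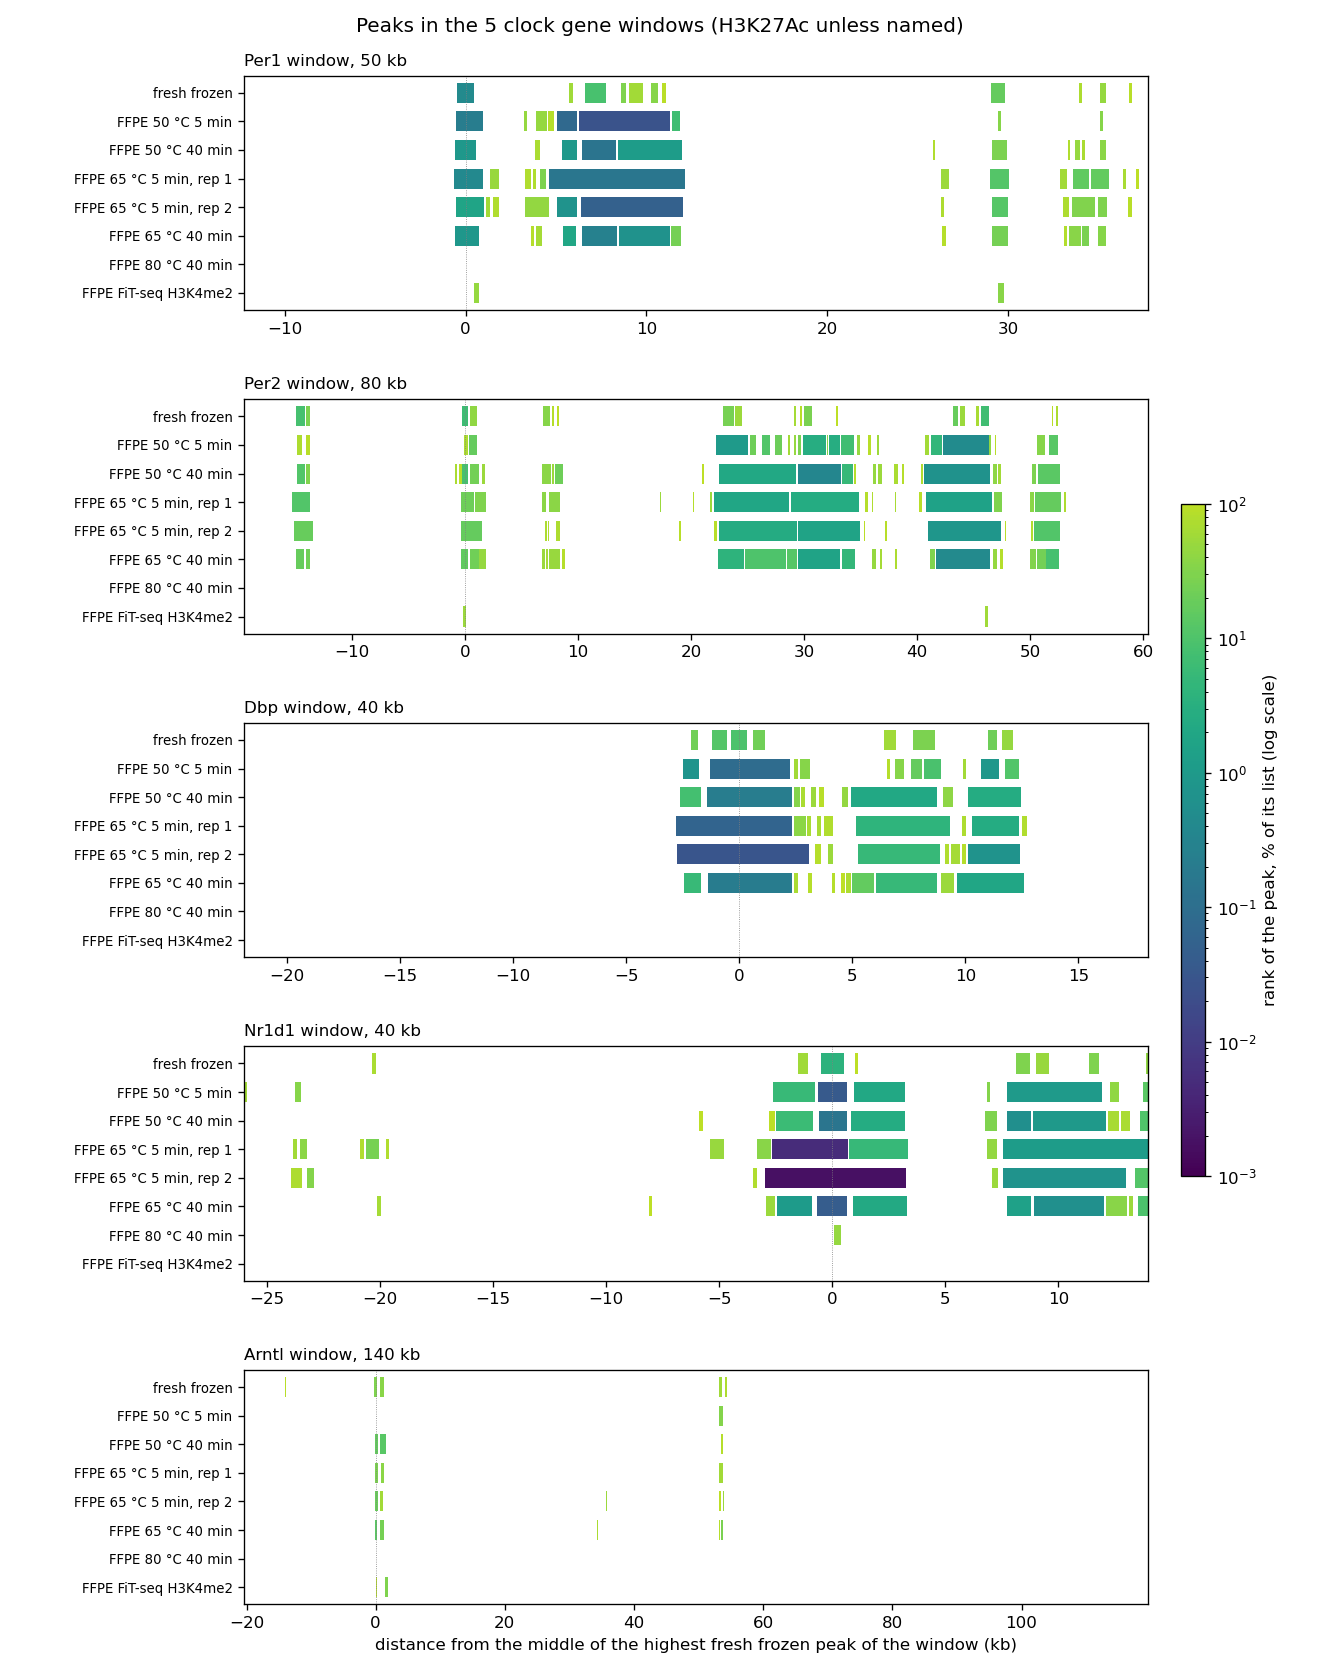
Peaks of 8 lists in the 5 windows, drawn at their distance in kb from the middle of the highest fresh frozen peak of the window, with darker bars for peaks that rank higher within their own list (colour scale in % of the list, logarithmic). The FFPE bars at Per1, Per2, Dbp and Nr1d1 are longer and darker than the fresh frozen ones at several places, whereas the 140 kb around Arntl hold few short peaks in every list.

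In each long FFPE list the highest clock gene peak lay at Nr1d1 or Per1. Each peak carries a score from the authors' peak caller, read here as −log10 of the q-value since no list names it, and used only to rank peaks within their own list. At Nr1d1 the highest score was 51.8 in fresh frozen liver, rank 1749. It was 42.5 after 5 min at 50 °C (rank 14), 109 after 40 min at 50 °C (rank 93), 193 and 162 in libraries 1 and 2 after 5 min at 65 °C (ranks 3 and 1), and 131 after 40 min at 65 °C (rank 26). In library 2 the Nr1d1 peak was thus the highest of 56632, a 6258 bp peak at chromosome 11, 98633037 to 98639294. Beneath it lay 3 fresh frozen peaks that together covered 1584 bp. The highest of these spanned 1017 bp, from 98635511 to 98636527.

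At Dbp the highest fresh frozen peak scored 36.4 and ranked 4545, at chromosome 7, 52961556 to 52962243. The Dbp window's highest FFPE peak scored 37.0 after 5 min at 50 °C (rank 33), 102 after 40 min at 50 °C (rank 144), 142 and 129 in libraries 1 and 2 (ranks 36 and 17), and 108 after 40 min at 65 °C (rank 134). At Per1 the highest fresh frozen peak, chromosome 11, 68901777 to 68902703, scored 83.7 and ranked 207. The highest FFPE peak of that window lay elsewhere, over a fresh frozen peak at 68908856 to 68910024 that scored 38.1 and ranked 4134. The FFPE peak there scored 43.9 after 5 min at 50 °C (rank 10), 110 after 40 min at 50 °C (rank 89), 123 and 118 in libraries 1 and 2 (ranks 91 and 29), and 104 after 40 min at 65 °C (rank 163).

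The Per2 window's highest fresh frozen peak, chromosome 1, 93309266 to 93309781, scored 43.6 and ranked 2985. The highest FFPE peak of that window scored 28.0 after 5 min at 50 °C (rank 177), 94.5 after 40 min at 50 °C (rank 232), 79.0 and 73.6 in libraries 1 and 2 (ranks 942 and 470), and 96.1 after 40 min at 65 °C (rank 289). It did not lie over that fresh frozen peak. It was at 93338967 to 93342784 after 40 min at 50 °C and within 93350349 to 93356948 in the other long lists. Arntl had the lowest top peak of the 5 windows in fresh frozen liver and in each long FFPE list. It scored 16.3 at chromosome 7, 120350084 to 120350633, in fresh frozen liver, rank 14517. Its FFPE ranks were 12480, 8643, 16583, 11234 and 8513, in the order 5 min at 50 °C, 40 min at 50 °C, library 1, library 2, and 40 min at 65 °C. The order of windows by their highest peak was Per1, Nr1d1, Per2, Dbp, Arntl in fresh frozen liver and Nr1d1, Dbp, Per1, Per2, Arntl in all 3 lists at 65 °C. In both lists at 50 °C it was Per1, Nr1d1, Dbp, Per2, Arntl.

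**Figure D2:**
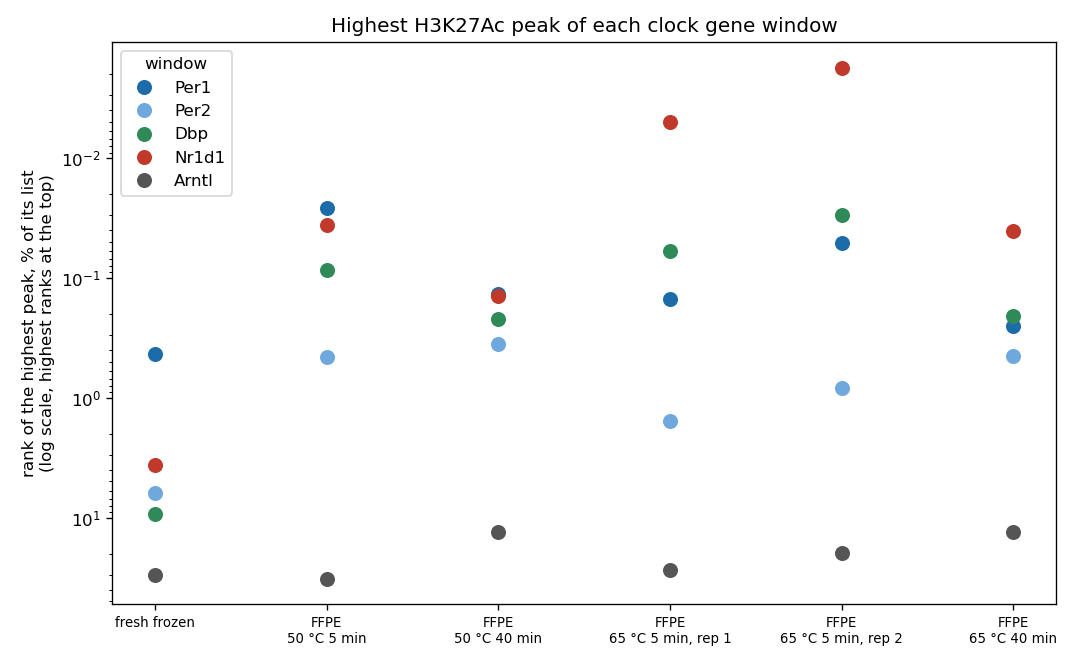
Rank of the highest H3K27Ac peak of each window, in % of the list on a logarithmic axis with the highest ranks at the top, for fresh frozen liver and the 5 long FFPE lists. Points of Per1, Per2, Dbp and Nr1d1 lie higher in every FFPE list than in fresh frozen liver, and those of Arntl stay between 13.2% and 32.5% throughout.

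Lists differ in length, so peaks were also counted down to a fixed rank. Of the 51 fresh frozen peaks in the windows, 7 had a rank of 5000 or better, where 10.4% of that whole list did. The counts in the FFPE lists were 21 of 55 after 5 min at 50 °C (13.6% of the list, ties included), 16 of 60 after 40 min at 50 °C (7.65%), 11 of 55 and 11 of 47 in libraries 1 and 2 (8.32% and 8.89%), and 17 of 64 after 40 min at 65 °C (7.86%). None lay in the Arntl window in any of these lists.

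Fresh frozen peaks at the clock genes were met by an FFPE peak more often than fresh frozen peaks at large, except at Arntl. Of the 51, an overlapping peak was present for 48 in library 1 (94.1%, Wilson 95% interval 84.1 to 98), where 73.0% of all fresh frozen peaks had one. In library 2 it was 47 (92.2%, against 70.2%), so the pair's mean was 93.1% ± 1.39 (SD, n = 2). It was 41 after 5 min at 50 °C (80.4%, interval 67.5 to 89.0, against 43.7%). It was 47 both after 40 min at 50 °C (against 73.2%) and after 40 min at 65 °C (against 72.0%), an interval of 81.5 to 96.9 each. At Arntl 1 of 5 peaks was met after 5 min at 50 °C (20%, interval 3.62 to 62.4). In each of the other long lists 3 of 5 were met (60%, interval 23.1 to 88.2). These shares lay below those over all fresh frozen peaks, but the intervals hold the latter, so 5 peaks do not set Arntl apart. The intervals cover counting error only, peaks in 1 window are not independent, and depth is unknown.

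By gene, all 8 Dbp peaks were met in all 5 long FFPE lists. Of the Nr1d1 peaks 7 of 8, of the Per2 peaks 16 of 19 and of the Per1 peaks 9 of 11 were met in all 5, and of the Arntl peaks 1 of 5. In total 41 of 51 were met in all 5 lists and 2 in none, where the whole fresh frozen list gave 41.1% and 16.6%. Both unmet peaks were low ones of the Arntl window, at chromosome 7, 120336385 to 120336530 (score 4.54, rank 43177) and 120404520 to 120404794 (score 6.01, rank 36140).

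In the other direction, the share of FFPE peaks with a fresh frozen partner was near that of the whole lists. Of the FFPE peaks in the windows, 30 of 55 met a fresh frozen peak after 5 min at 50 °C (54.5%, against 55.7% in the whole list), and 32 of 60 after 40 min at 50 °C (53.3%, against 49.4%). It was 24 of 55 and 25 of 47 in libraries 1 and 2 (43.6% and 53.2%, against 44.3% and 46.4%) and 33 of 64 after 40 min at 65 °C (51.6%, against 49.6%). In library 1, 18 peaks of the windows were shared with library 2 and met no fresh frozen peak. That was 32.7% of its 55 window peaks, near the 28.6% over its whole list, and none of the 18 was at Arntl. The 5 widest lay at Per2 (chromosome 1, 93356312 to 93357017, 706 bp), Nr1d1 (chromosome 11, 98632682 to 98633288, 607 bp, and 98642856 to 98643321, 466 bp), Per1 (chromosome 11, 68903596 to 68904108, 513 bp) and Dbp (chromosome 7, 52964325 to 52964830, 506 bp). They ranked between 18340 and 30170 of 60244 in library 1.

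To compare strength between lists, each fresh frozen peak met by an FFPE list was ranked among all such peaks, once by its fresh frozen score and once by the highest FFPE score over it. The rank percentile counts from the top, so that 0 is highest. The difference, fresh frozen minus FFPE, is positive where a peak ranks higher in FFPE tissue. All 5 comparisons share the 1 fresh frozen library. A move of over 25 points was counted.

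Most clock gene peaks ranked higher in FFPE than in fresh frozen liver, 39 of 48 in library 1 and 36 of 47 in library 2, where 45.4% and 46.0% of all shared peaks did. Peaks under 1 wide FFPE peak are counted separately here. The median difference was 27 points in library 1 (48 peaks) and 26.5 in library 2 (47 peaks), a mean of 26.8 ± 0.35 (SD, n = 2), where all shared peaks had -2.8 and -2.7. It was 39.7 after 5 min at 50 °C (41 peaks), 28.9 after 40 min at 50 °C and 23.7 after 40 min at 65 °C (47 peaks each), where all shared peaks had -1.1, -2.3 and -2.6. Higher by over 25 points were 26 of 48 in library 1 (19.2% of all shared peaks), 24 of 47 in library 2 (19.7%), 27 of 41 after 5 min at 50 °C (21.7%), and 26 of 47 and 23 of 47 after 40 min at 50 °C and 65 °C (18.4% each). Lower by over 25 points were 4 in library 1 (20.0%), 5 in library 2 (20.8%), 4 after 5 min at 50 °C (22.5%), 4 after 40 min at 50 °C (19.0%) and 4 after 40 min at 65 °C (19.2%). Between libraries 1 and 2, the 46 clock peaks that both met differed by a median of 3.3 points in size, and 1 of them by over 25. All 31926 peaks that both met differed by a median of 7.2 points, and 6.60% of them by over 25.

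Several fresh frozen peaks often lay under 1 wide FFPE peak and so took the same FFPE score. With overlapping peaks of the 2 lists joined to sites, each counted once, the median was 16.2 points over 22 sites in library 1 and 9.9 over 24 in library 2, a mean of 13. It was 34.2 after 5 min at 50 °C, 14.3 after 40 min at 50 °C and 19.7 after 40 min at 65 °C. Over 25 points higher were then 10 of 22 and 8 of 24 sites in libraries 1 and 2, where 13.4% and 14.4% of all joined sites were. Over 25 points lower were 1 of 22 and 3 of 24, where 12.8% and 13.9% of all joined sites were. The joined medians in libraries 1 and 2 were 15.3 and 8.2 points at Per1 and 9.0 and 9.9 at Per2. They were 29.4 and 31.8 at Dbp and 35.5 and 33.9 at Nr1d1, each of these over 3 to 8 sites.

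**Figure D3:**
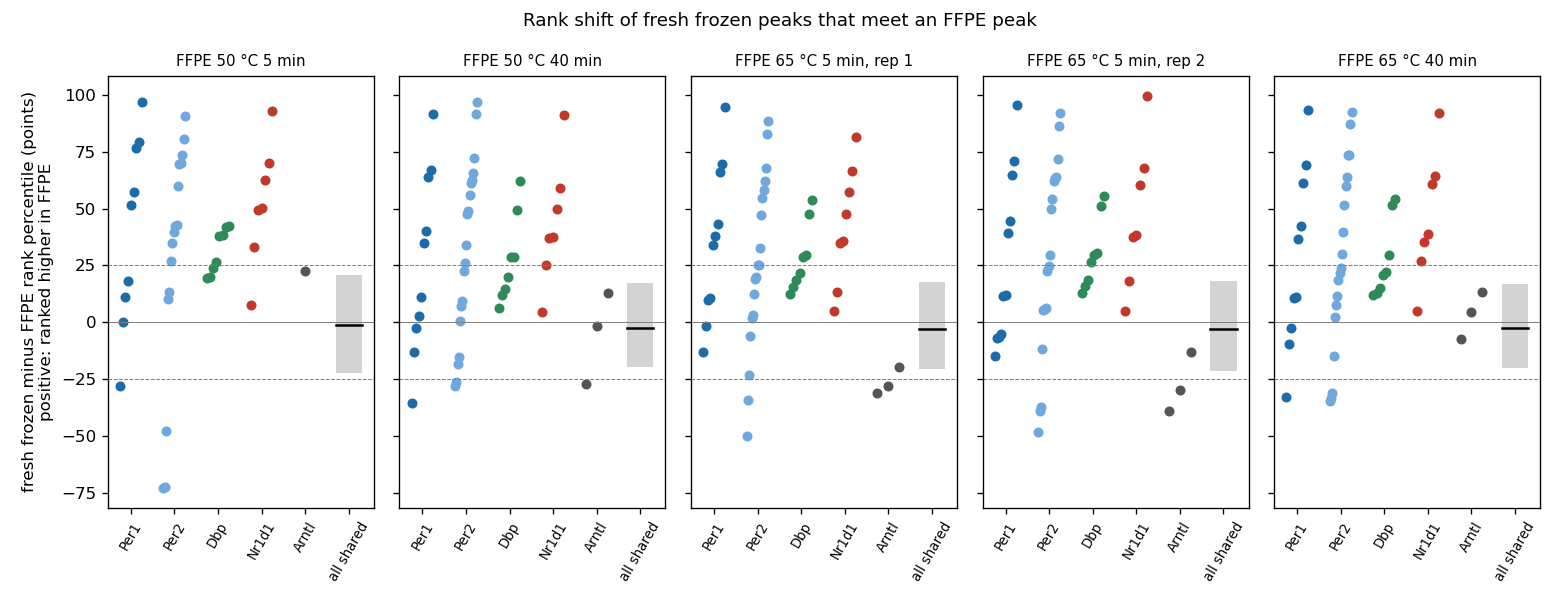
Difference in rank percentile (points) of each fresh frozen peak that meets a peak of the named FFPE list, by window, with the median (line) and the middle 50% (grey) of all shared peaks and dashed lines at 25 points. Every Dbp and Nr1d1 point lies above 0 in all 5 lists, Per1 and Per2 points lie on both sides, and all 3 Arntl points of each 65 °C, 5 min library lie below 0.

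The difference was not spread evenly over the windows. Fresh frozen peaks were put into 17 groups, split at gaps of over 5 kb, a description chosen after the values were seen. Peaks of a group often share 1 wide FFPE peak, so the move of the highest fresh frozen peak of a group is given too. At Nr1d1, which encodes the repressor of Arntl, 3 peaks at chromosome 11, 98634513 to 98637172, had medians of 66.6 and 67.8 points in libraries 1 and 2 and 62.5, 49.6 and 64.1 in the lists of 5 min at 50 °C, 40 min at 50 °C, and 40 min at 65 °C. The main peak among them, at 98635511, ranked near the top in both tissues and moved by 4.4 to 7.8 points, from a fresh frozen percentile of 4.9 to 8.0. The peaks on either side moved far more. The 146 bp peak at 98637027 scored 2.93 in fresh frozen liver, and the FFPE peaks over it put it 81.4 to 99.6 points higher. A second group of 4 peaks, 98644147 to 98650228, was also higher in all 5 lists, with medians of 37.0 to 50.0 points, and its highest fresh frozen peak moved by 34.9 to 49.5 points.

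At Dbp, the gene of the D-box factor, all 8 peaks were higher in each of the 5 lists. The 4 peaks at chromosome 7, 52959764 to 52963028, had medians of 22.0 and 22.9 points in libraries 1 and 2, and the 4 at 52968305 to 52974027 had 34.6 and 38.8. In library 1 a single peak of 5132 bp covered the first of these groups, and in library 2 a peak of 5826 bp. The fresh frozen peaks there covered 2173 bp, and the highest of them moved by 11.9 to 19.7 points over the 5 lists.

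At Per1, which encodes a repressor of the loop, the group of 6 peaks at chromosome 11, 68907935 to 68913321, was higher in all 5 lists. Its medians were 54.6 and 54.8 points in libraries 1 and 2, 66.8 after 5 min at 50 °C, 52.1 after 40 min at 50 °C and 51.8 after 40 min at 65 °C. In library 1 a single peak of 7546 bp lay over all 6, and their highest fresh frozen peak moved by 10.7 to 18.2 points over the 5 lists. The peak at 68901777 differed by 0.1 to -6.6 points, having ranked near the top in both tissues. The peak at 68931285 to 68932090 was lower in all 5 lists, by -12.8 and -14.7 points in libraries 1 and 2 and by -27.7, -35.5 and -32.7 points in the lists of 5 min at 50 °C, 40 min at 50 °C, and 40 min at 65 °C. The smaller peaks beyond it were mixed. That at 68936161 was higher in the 4 lists that met it, by 2.9 to 33.8 points, and that at 68937302 was higher by 11 after 5 min at 50 °C and by 10 in library 1 but lower in the other 3. The peak at 68938918 was met in library 2 alone, where it differed by -5.2 points.

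Per2, the second PER gene, showed the same unevenness over 80 kb. The 6 peaks at chromosome 1, 93332382 to 93342521, had medians of 58.4 and 59.0 points in libraries 1 and 2 and were higher in every long FFPE list, the highest of them in fresh frozen liver by 21.6 to 42.4 points. The 4 at 93352741 to 93355908 had 38.6 and 42.2, and the 2 at 93361447 to 93362042 had 40.0 and 56.6, again higher in every long list. The highest fresh frozen peak of the 4, at 93355204, moved by 3.2 to 13.2 points. In contrast, the window's highest fresh frozen peak, at 93309266 to 93309781, was lower in FFPE, by -49.7 and -38.9 points in libraries 1 and 2, -72.4 after 5 min at 50 °C, -15.0 after 40 min at 50 °C and -30.8 after 40 min at 65 °C. The peak at 93294580 to 93295374 was lower as well, by -23.0 and -37.2 points in libraries 1 and 2 and by -72.8, -18.2 and -33.0 in the other 3 lists. Both peaks thus lost rank in every long list, while the peaks from 93332382 onward gained it. The peak at 93316443 to 93317033 was lower in the 4 lists that met it, by -26.2 to -48.3 points. The smaller peaks beside it, at 93317233 and 93317690, were higher wherever they were met, by 5.9 to 49 points. Those at 93295497 and 93309999 went both ways.

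At Arntl, the gene of the activator, the direction differed between libraries. In libraries 1 and 2 all 3 shared peaks were lower in FFPE, with a median of -28.1 and -29.7 points, a mean of -28.9 ± 1.13 (SD, n = 2). The peak at chromosome 7, 120351069 to 120351626, differed by -31.1 and -38.9 points, and that at 120350084 by -28.1 and -13.0. In the other lists the values were mixed. After 40 min the medians over 3 peaks were -1.5 at 50 °C and 4.7 at 65 °C, and after 5 min at 50 °C the 1 shared peak was 22.4 points higher. With joined sites the Arntl medians were -11.7 and -24.6 in libraries 1 and 2, and 8.8, 15.3 and 28.7 in the lists of 40 min at 50 °C, 40 min at 65 °C, and 5 min at 50 °C. At most 3 peaks or sites stand behind each of these values.

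The length covered by H3K27Ac peaks gave a similar picture. At Nr1d1 peaks covered 3.51 kb of the 40 kb window in fresh frozen liver and 15.4 and 13.5 kb in libraries 1 and 2, a ratio of 4.13 ± 0.381 (SD, n = 2) to fresh frozen. The ratio was 3.38 ± 0.176 at Per2 (8.07 kb in fresh frozen liver), 2.83 ± 0.0136 at Dbp (4.57 kb) and 2.62 ± 0.132 at Per1 (5.37 kb), all n = 2. At Arntl it was 0.745 ± 0.0297 (2.05 kb in fresh frozen liver, n = 2), so that FFPE peaks covered less there. Over the whole lists FFPE peaks covered 2.06 ± 0.138 times (SD, n = 2) the fresh frozen length. For all 5 windows together the ratio was 2.98 ± 0.147 (SD, n = 2).

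In the single libraries the coverage of all 5 windows was 2.06 times the fresh frozen length after 5 min at 50 °C, 2.63 times after 40 min at 50 °C and 2.62 times after 40 min at 65 °C. The whole lists gave 0.839, 1.77 and 1.69 times. After 5 min at 50 °C, where the list as a whole covered less than fresh frozen liver, Nr1d1 was still covered 3.09 times, Per2 2.40 times, Per1 1.79 times and Dbp 1.78 times as much, and Arntl 0.274 times. After 40 min at 50 °C Per1 was covered 1.78 times, near the 1.77 of the whole list, while Dbp (2.71), Per2 (3.3) and Nr1d1 (3.36) lay above it. Arntl was covered less than in fresh frozen liver in each long FFPE list, at 0.274 to 0.812 times. How far peak calling, whose settings are not given in the sources used here, sets these lengths was not tested.

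**Figure D4:**
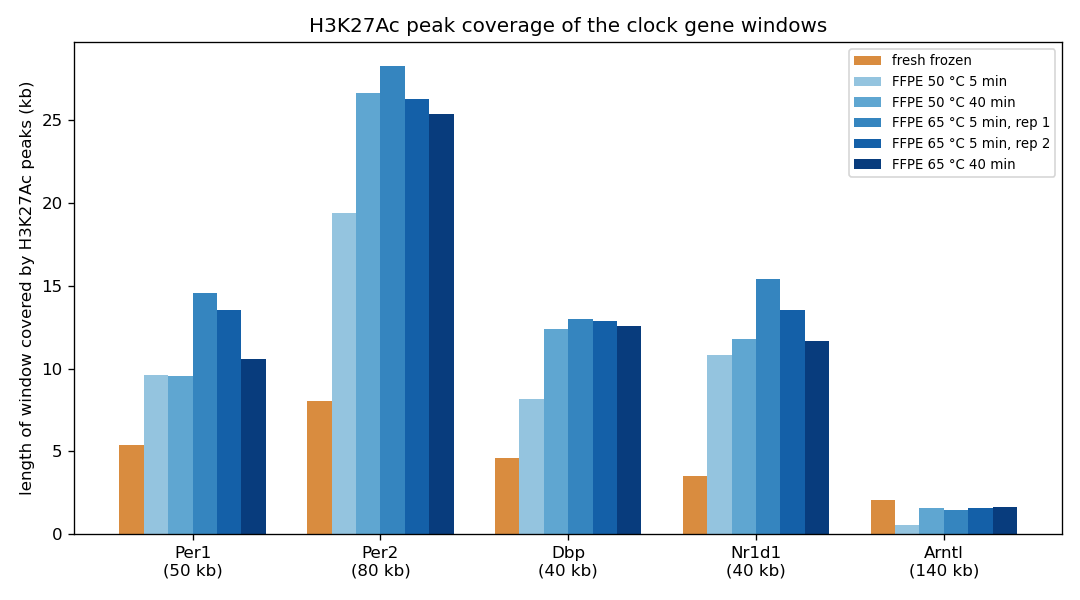
Length (kb) of each window covered by H3K27Ac peaks in fresh frozen liver (orange) and the 5 long FFPE lists (blue), 1 bar per library, with the window's length under its name. FFPE bars are longer than the fresh frozen bar at Per1, Per2, Dbp and Nr1d1 and shorter at Arntl.

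The shortest lists and the second mark held few clock gene peaks. The 80 °C list met 1 of the 51 fresh frozen peaks (1.96%, interval 0.347 to 10.3, against 0.112% of all fresh frozen peaks). That was the main Nr1d1 peak, met by a peak at chromosome 11, 98636073 to 98636391, that scored 5.62 and ranked 30 of 65. The FiT-seq H3K27Ac list met none of the 51 (interval up to 7%, against 0.0829% of all). The H3K4me2 list met 5 (9.80%, interval 4.26 to 21), against 16.0% of all fresh frozen peaks. Its 6 peaks were 2 at Per1, 2 at Per2 and 2 at Arntl, none scored above 6.67, and none lay at Dbp or Nr1d1. The highest was at Arntl, chromosome 7, 120351747 to 120352270, with rank 3589, so in this list Arntl came ahead of Per1 (rank 4342) and Per2 (rank 6092). The H3K4me2 peaks at Per1 overlapped the fresh frozen H3K27Ac peaks at 68901777 and 68931285, and none lay over the stretch from 68907935 to 68913321.

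Between sonication times the windows differed as follows. From 5 to 40 min, recovery of the 51 peaks differed by 11.8 percentage points at 50 °C and by -0.98 at 65 °C, where the SD of the pair was 1.39. Recovery of all fresh frozen peaks went from 43.7% to 73.2% at 50 °C, a larger change than in the windows. At 65 °C it went from 73.0% and 70.2% in libraries 1 and 2 to 72.0%. The median rank difference of the clock gene peaks changed by -10.8 points at 50 °C and -3.05 at 65 °C. That of all shared peaks went from -1.1 to -2.3 at 50 °C, and from -2.8 and -2.7 to -2.6 at 65 °C. Every condition but 65 °C with 5 min had 1 library, and differences between conditions were not tested. Nothing says whether libraries 1 and 2 came from separate animals, so their SD may be technical.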

How the data were processed

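The authors aligned reads with BWA and called peaks with MACS2 on mm9, per the submitters' processing notes. Their versions, thresholds and use of the input are not given in the sources used here, and the input sample was not used. The authors deposited 1 list per library. Each deposited score was taken as a −log10 q-value because no list has a value below 2. Read depth cannot be read from the score and is unknown, so scores of different lists are not on a common scale.

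Autosomal, X and Y peaks were kept, with starts made 1-based. Peaks overlapping a window or one another by at least 1 bp were counted. No statistical test was made. Conditions other than 65 °C with 5 min had 1 library. Shares carry Wilson 95% intervals, and differences are set beside the SD of the pair and the value over all peaks. The genes, windows and lists were chosen with earlier results of these data known. Named peaks followed a rule: the highest fresh frozen peak of each window, those that no long list met, and the 5 widest that both replicate libraries held where frozen liver had none. Other named peaks were chosen after their values were seen. Other clock genes, planned for an mm9 annotation, were not analysed here. Alternatives are given in the closing section. Overlap and ranking were tested on simulated lists of 5000 peaks, which returned a made share of 60% as 60%. This checks the code only. In the simulated lists each peak met at most 1 other, so a wide peak over several narrow ones was not tried. The software was pandas 2.3.3 with numpy 2.4.6 under Python 3.11.15, scipy 1.17.1 for intervals, and matplotlib 3.10.9 for figures.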

Additional observations from a re-analysis of the deposited data

Results flagged for a closer look

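The covered length of the clock windows, relative to fresh frozen liver, changed in opposite directions with longer sonication at the 2 temperatures. From 5 to 40 min the ratio of the windows was 0.57 higher at 50 °C and differed by -0.359 at 65 °C, below each of the 2 libraries of 5 min. The whole lists changed in the same directions, so the contrast is not particular to the clock windows. Their ratio went from 0.839 to 1.77 at 50 °C and from 2.06 ± 0.138 (SD, n = 2) to 1.69 at 65 °C. The contrast between temperatures was not tested, and replicate libraries exist only for 5 min at 65 °C.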

How the results depend on the processing

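Of 62 alternative values, 36 stayed within the spread of the pair or the interval of the share and 26 moved beyond it. The interval was used for recovery in conditions with 1 library and the SD of the pair for all other values. The counts therefore mix unlike limits. Recovery after 5 min at 50 °C went from 80.4% to 74.5% with peak midpoints required inside the FFPE peak, and counted as within its interval. The 36 include the values of either library alone. With n = 2 these always lie within the SD of the pair, so they say nothing about stability. Of the 62, the 22 rank differences stayed above 0 and the 14 coverage ratios above 1. A ratio above 1 does not set the windows apart, since the whole lists gave 2.06 in the pair and 1.77 and 1.69 after 40 min at 50 °C and 65 °C. Only the whole list of 5 min at 50 °C lay below 1, at 0.839. Values over all peaks were not recomputed with these settings, so how far the windows stand apart from all peaks was not checked there. Recovery moved from 93.1% in the 65 °C, 5 min pair to 90.6% with peaks merged within 500 bp and to 95.7% with windows narrowed by 10 kb, and to 97.1% with narrowed windows both after 40 min at 50 °C and after 40 min at 65 °C. Either library alone gave 92.2% to 94.1%. The median rank difference of the pair, 26.8 points, became 29.9 with scores of at least 5, 30.2 with merged peaks, 27.9 with an overlap of 50% of the shorter peak, 27.5 with narrowed windows and 13 with joined sites, an alternative added after the data were seen. Either library alone gave 26.5 to 27. At 5 min at 50 °C it became 44.8, 46.1 and 41.7 with the first 3 of these settings and 34.2 with joined sites. At 40 min at 50 °C it became 29.7 with merged peaks, 29.9 with 50% overlap and 14.3 with joined sites. At 40 min at 65 °C it became 26.0 with scores of at least 5, 31.6 with merged peaks, 24.5 with 50% overlap, 22.6 with narrowed windows and 19.7 with joined sites. Joined sites count a wide peak once. The coverage ratio of the pair became 2.66 with merged peaks, and either library alone gave 2.88 to 3.09. Narrowed windows gave 2.24 after 5 min at 50 °C and 2.80 after 40 min at 50 °C, and merged peaks gave 2.39 both after 40 min at 50 °C and after 40 min at 65 °C. The cause of the other moves was not tested. No paired analysis was possible because replicate numbers exist in 1 condition only. Read depth is unknown, so a missing peak may be one not detectable at that depth.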
